A study of Mus musculus with 38 samples.

Results

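The genes described here are the glucocorticoid receptor gene Nr3c1 and 6 of its classic target genes, Fkbp5, Tsc22d3, Per1, Sgk1, Zbtb16 and Dusp1. They were chosen by name, as textbook genes of the glucocorticoid response, with earlier results of these data known, and make up 7 of the 35682 genes in the count table. Each matched 1 Ensembl gene. The study asked how acute myocardial infarction (AMI) and treatment with the sodium-glucose cotransporter 2 inhibitor empagliflozin (EMPA) change gene expression in the cell types of the mouse heart. RNA was sequenced in 38 libraries of cardiomyocytes, endothelial cells (ECs) and fibroblasts of C57BL/6 male mice aged 8 to 12 weeks, each library from 2 pooled hearts. The Sham group (SHAM in the sample names) received vehicle, 5% DMSO in saline, by mouth for 6 weeks and then an operation in which the chest was opened without ischemia. The Control-AMI group (Control_IR) received the same vehicle and then 30 min of ligation of the left anterior descending artery with 2 h of reperfusion. The EMPA–Pre-AMI group (EMPA_IR) received EMPA at 10 mg/kg/d in that vehicle for 6 weeks before the same ischemia and reperfusion. In this order, there were 4, 5 and 4 libraries of cardiomyocytes, 4, 4 and 5 of ECs, and 4 per group of fibroblasts.

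Several features limit the groups as a model. All animals, Sham included, were anesthetized with ketamine, xylazine and atropine and had open-chest surgery, and all received DMSO, so no group was free of an operation. No group received a glucocorticoid or a receptor antagonist, and corticosterone in blood was not among the data analysed here. There was also no EMPA group without AMI. How long Sham animals were under anesthesia with the chest open is not given, nor is the time of day when hearts were taken. The part of either in differences from Sham was not tested. The hearts were digested with collagenase, and tissue below the ligature was taken. Cardiomyocytes were a low-speed pellet, ECs were sorted as CD45- CD31+ cells and fibroblasts as CD45- CD31- CD90+ cells. The paper took the pellet and the cells for sorting from the same digested tissue, so the populations share hearts. The labels do not tie a library of one population to the hearts of another. The p-values across populations therefore treat libraries as separate and leave out this pairing.

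The glucocorticoid receptor is a nuclear receptor that is held in the cytoplasm by heat shock proteins and immunophilins. After binding corticosterone, the main glucocorticoid of the mouse, it moves to the nucleus and acts at glucocorticoid response elements, inverted repeats with a 3-base spacer, while also dampening inflammatory transcription factors. Corticosterone rises with surgery and other stress, follows a daily rhythm, and can also bind the related mineralocorticoid receptor in the heart. Among the targets, Fkbp5 encodes an immunophilin that lowers the affinity of the receptor for its hormone, and Tsc22d3 encodes the leucine zipper protein GILZ, which binds inflammatory transcription factors. Per1 is a component of the circadian clock, Sgk1 is a kinase of ion transport and cell survival, Zbtb16 is the zinc finger repressor PLZF, and Dusp1 is a phosphatase of mitogen-activated protein kinases. Dusp1, Sgk1 and Per1 also respond to other signals, growth factors and cell stress among them.

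Library totals ran from 2031716 to 4509284 counts for cardiomyocytes, from 1352514 to 2195308 for ECs and from 1946056 to 2821373 for fibroblasts. Levels are given as CPM, the counts of a gene relative to the scaled total of its library. The 3 counts that a listed 0 still allows stood for at most 1.48, 2.22 and 1.54 CPM in the 3 populations. These limits are relative to the unscaled totals, and so only roughly on the scale of the levels. Mitochondrial transcripts took 46.6% to 66.01% of the cardiomyocyte counts, against 4.52% to 14.6% in ECs and 3.47% to 12.5% for fibroblasts. Markers of the labelled cell type were high in each population. The summed level of 8 cardiomyocyte markers was 39449 to 90900 CPM in cardiomyocytes and at most 830 in the other populations, that of 8 endothelial markers was 4451 to 9612 CPM in ECs, and that of 8 fibroblast markers was 10494 to 16828 CPM in fibroblasts. The cardiomyocyte libraries also held 1117 to 2609 CPM of endothelial and 426 to 3905 CPM of fibroblast markers. Within ECs, the fibroblast markers summed to 392 to 1024 CPM in Sham, 1364 to 4938 in Control-AMI and 339 to 684 in EMPA–Pre-AMI, and 6 of the 7 tested were higher in Control-AMI than in Sham. Fibroblast Sham replicate 2 stood apart in leukocyte markers (345 CPM, against at most 25.0 in the other fibroblast libraries), EC Control-AMI replicate 3 in the same markers (417 CPM, against at most 84.4 in other ECs) and fibroblast Control-AMI replicate 4 in mural markers (3375 CPM). Calls in fibroblasts against Sham are given with and without both, and leaving out EC Control-AMI replicate 3 ended no call of the 7 genes in ECs. Among cardiomyocytes, EMPA–Pre-AMI replicate 2 held the most leukocyte markers (427 CPM, against at most 214 in other cardiomyocyte libraries).

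The libraries also fall into 4 sheet lists, read here from 2 numbers in the labels of each library: ordered by the first, the second rises within 4 successive runs. What the lists mark is not given in the sources used here. Of the cardiomyocyte libraries, the 4 of Sham and the 5 of Control-AMI were on list 4, with 1 EMPA–Pre-AMI library (replicate 4), while the others of that group were on lists 2 (1 library) and 3 (2 libraries). There the list and EMPA can hardly be told apart, and a fit with the list as covariate compares replicate 4 alone with the other groups. In ECs, list 2 held 3, 2 and 3 libraries of Sham, Control-AMI and EMPA–Pre-AMI, and in fibroblasts list 1 held 3, 1 and 1 and list 4 held 1, 3 and 2. The other ECs of Sham (1 library) and EMPA–Pre-AMI (2 libraries) were on list 3. Control-AMI replicates 1 and 4 were the only ECs on list 4.

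The DNA of 2 of the genes holds a perfect glucocorticoid response element. This inverted repeat, AGAACA and TGTTCT separated by any 3 bases and so the same on both strands, occurs 639 times on the chromosomes of GRCm39. It was searched in the span of each gene, extended to 5000 bases on both sides of its start, and 1.34% of 21770 protein-coding genes held one. It was found at 2 places in Fkbp5 and at 1 in Sgk1, and not in the spans of Nr3c1, Tsc22d3, Per1, Zbtb16 or Dusp1. Only this exact repeat was searched in the spans, so its absence does not show that a gene lacks a response element with other letters. Both Fkbp5 elements lie in introns of the canonical transcript, intron 1 at chr17:28661393-28661407 and intron 5 at chr17:28639295-28639309, which is 43752 and 65850 bases after its start, respectively. The Sgk1 element lies 958 bases before the canonical start, at chr10:21869600-21869614, in no exon of the annotation and within an intron of 5 of the 23 annotated transcripts. Long genes hold such a repeat more often, and 3.08% and 3.17% of genes with a span like that of Fkbp5 and Sgk1 had one. Within 5000 bases of a start, as in Sgk1, 0.124% of genes had one. The elements are shown on the strand of the gene, read 5′ to 3′, with the inverted repeat in capitals.

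Fkbp5 intron 1: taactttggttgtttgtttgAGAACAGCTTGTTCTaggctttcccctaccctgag
Fkbp5 intron 5: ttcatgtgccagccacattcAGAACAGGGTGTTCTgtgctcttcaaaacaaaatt
Sgk1 upstream: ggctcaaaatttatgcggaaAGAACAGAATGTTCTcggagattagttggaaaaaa

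The 3 elements differ in their spacer and in their flanks. A match of letters is a description of the sequence and says nothing about binding of the receptor in these cells, which was not measured. The 250 bases before the start of Fkbp5, Zbtb16 and Per1, the genes that rose in ECs, are shown next with the clock element CACGTG (E-box) in capitals. They are read 5′ to 3′ on the strand of the gene from GRCm39, at chr17:28705153-28705402 (minus strand), chr9:48747658-48747907 (minus strand) and chr11:68989018-68989267 (plus strand), and none overlaps an annotated exon.

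Fkbp5 promoter: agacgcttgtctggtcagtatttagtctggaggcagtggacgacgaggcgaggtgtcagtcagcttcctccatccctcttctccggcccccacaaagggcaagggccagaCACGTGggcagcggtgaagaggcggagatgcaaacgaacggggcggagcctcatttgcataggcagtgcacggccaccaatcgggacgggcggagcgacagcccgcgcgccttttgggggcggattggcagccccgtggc
Zbtb16 promoter: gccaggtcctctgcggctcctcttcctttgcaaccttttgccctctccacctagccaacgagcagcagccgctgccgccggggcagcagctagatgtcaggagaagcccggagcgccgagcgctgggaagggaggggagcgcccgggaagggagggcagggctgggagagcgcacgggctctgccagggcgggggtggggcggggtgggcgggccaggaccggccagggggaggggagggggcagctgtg
Per1 promoter: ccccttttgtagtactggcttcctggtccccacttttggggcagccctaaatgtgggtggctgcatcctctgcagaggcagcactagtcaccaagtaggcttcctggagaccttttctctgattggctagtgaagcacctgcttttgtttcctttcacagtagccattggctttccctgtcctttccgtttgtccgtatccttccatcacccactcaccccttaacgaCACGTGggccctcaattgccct

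One E-box stood in each of the windows of Fkbp5, Per1 and Dusp1 and none in those of Zbtb16, Nr3c1, Sgk1 and Tsc22d3, and 6.26% of all such windows of protein-coding genes held one. The arm TGTTCT of the response element, searched on both strands, was in none of the windows of the 7 genes and in 14.3% of all windows. The cyclic AMP element TGACGTCA was found in the window of Dusp1 alone among the 7 genes, and in 1.69% of all windows.

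Infarction was accompanied by higher levels of several of these genes in ECs and fibroblasts, and no gene of the group passed the test between EMPA–Pre-AMI and Control-AMI. In ECs, Fkbp5 and Zbtb16 rose in Control-AMI against Sham, and Per1 rose as well when EMPA–Pre-AMI was set against Sham. In fibroblasts, Fkbp5, Sgk1 and Zbtb16 rose in both AMI groups. In cardiomyocytes none of the 7 genes passed the test in any comparison between groups. The test was edgeR's quasi-likelihood test within each population, with a Benjamini-Hochberg FDR below 0.05 over all genes tested. All 7 genes passed the filter on low counts in every population.

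Against this stands how often any gene passed, as a description, since the 7 genes were chosen with results of these data known. In ECs, 2 of the 7 genes rose in Control-AMI against Sham and none fell, where 6.56% of all genes passed (4.09% higher, 2.47% lower). In EMPA–Pre-AMI against Sham 3 rose, where 2.71% of all genes passed (2.08% higher). In fibroblasts 3 rose in Control-AMI against Sham, where 4.16% of all genes passed (2.99% higher), and 3 rose in EMPA–Pre-AMI against Sham, where 5.11% passed (3.65% higher). Both comparisons with Sham use the same Sham libraries. In cardiomyocytes 0 of 7 passed in Control-AMI against Sham (0.0655% of all genes), with 2 at an unadjusted p under 0.05 and 0 with DESeq2. For EMPA–Pre-AMI against Sham the count was 0 (0.338% of all genes), with 2 at an unadjusted p under 0.05 and 1 with DESeq2. Between EMPA–Pre-AMI and Control-AMI edgeR passed 0 of 7 in cardiomyocytes (0.0218% of all genes), ECs (2.63%) and fibroblasts (0%), with 1, 2 and 0 at an unadjusted p under 0.05 and 1, 0 and 0 with DESeq2. Groups without overlap with Sham were read against all genes as well. In Control-AMI ECs, 2 genes lay wholly above Sham (5.78% of all genes) and 1 wholly below (5.54%), and in EMPA–Pre-AMI ECs 3 lay above (3.98%). In fibroblasts 3 lay above Sham in Control-AMI (6.63%) and the same 3 in EMPA–Pre-AMI (6.59%). The median log2 fold change of the 7 genes in Control-AMI against Sham was 0.43 in cardiomyocytes, 0.72 in ECs and 0.55 in fibroblasts, beside 0.01, -0.02 and -0.03 over all genes tested.

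**Figure D1:**
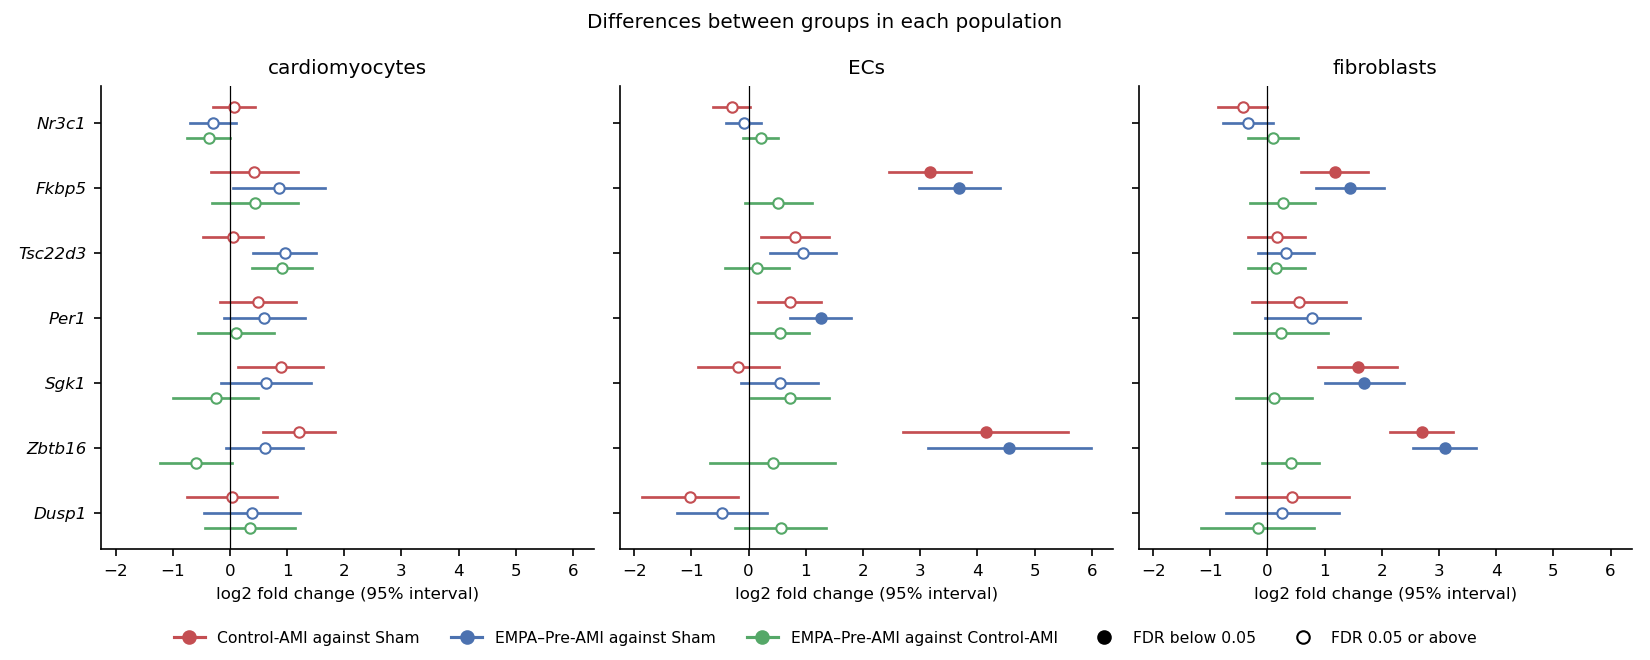
Log2 fold changes of the 7 genes in each population, with bars for the 95% interval, for the 3 comparisons between groups. Filled points have an FDR below 0.05: Fkbp5 and Zbtb16 in ECs, Fkbp5, Sgk1 and Zbtb16 in fibroblasts, and Per1 in ECs for EMPA–Pre-AMI against Sham, while no green point (EMPA–Pre-AMI against Control-AMI) is filled.

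Nr3c1, which encodes the receptor itself, was present in every library and passed the test in no comparison between groups. In ECs it was at 254, 243, 292 and 269 CPM in Sham, 213, 258, 223 and 169 in Control-AMI, and 302, 240, 277, 211 and 218 in EMPA–Pre-AMI. The groups overlap, and the log2 fold change of Control-AMI against Sham was -0.29 with a 95% interval of -0.62 to 0.03. In fibroblasts it was at 171 to 244 CPM in Sham, 121 to 195 in Control-AMI and 126 to 203 in EMPA–Pre-AMI, with a log2 fold change of -0.43 in Control-AMI against Sham (95% interval -0.87 to -0.00, unadjusted p = 0.0491, FDR = 0.258 in edgeR). Cardiomyocytes had 34.8 to 48.6, 38.7 to 49.4 and 27.2 to 37.6 CPM in the same order. There the 4 EMPA–Pre-AMI libraries all lay below the 5 Control-AMI libraries, as in 3.59% of all genes, with a log2 fold change of -0.37 (FDR = 0.209). With the list as covariate, the fibroblast differences from Sham were -0.63 in Control-AMI (FDR = 0.0337) and -0.61 in EMPA–Pre-AMI (FDR = 0.0445) and passed.

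Fkbp5 rose in ECs and fibroblasts. In ECs its levels were 14.7, 30.9, 15.1 and 20.8 CPM in Sham, 124, 269, 166 and 180 in Control-AMI, and 206, 384, 167, 337 and 229 in EMPA–Pre-AMI. Every library of both AMI groups lay above every Sham library. The fold was 8.98 in Control-AMI against Sham (95% interval 5.46 to 14.8, log2 3.17, SE 0.34, FDR = 0.000275), rank 5 of 10438 genes by p, and 12.9 in EMPA–Pre-AMI (95% interval 7.87 to 21.02, FDR = 4.1e-05), rank 3. EMPA–Pre-AMI and Control-AMI overlapped, with a log2 difference of 0.52 (95% interval -0.07 to 1.11, FDR = 0.491). Within list 2 alone, Fkbp5 in ECs differed by 3.29 on the log2 scale between Control-AMI and Sham (FDR = 0.0118).

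In fibroblasts Fkbp5 was at 86.7, 65.98, 44.7 and 64.2 CPM in Sham, 106.2, 130, 121 and 235 in Control-AMI, and 194, 115, 167 and 237 in EMPA–Pre-AMI. The Sham libraries lay below all others. The fold was 2.26 in Control-AMI (95% interval 1.505 to 3.40, FDR = 0.0249) and 2.72 in EMPA–Pre-AMI (95% interval 1.80 to 4.10, FDR = 0.00717). Without Sham replicate 2 and Control-AMI replicate 4, the libraries high in leukocyte and mural markers, the first log2 difference was 0.87 instead of 1.18 and did not pass (FDR = 0.117), and the second was 1.45 (FDR = 0.00585). The first call was also lost without Sham replicate 2, 3 or 4 or Control-AMI replicate 4 alone (FDR up to 0.0791). In cardiomyocytes, where Fkbp5 had at most 61 counts in a library, levels were 6.48, 14.8, 5.47 and 6.36 CPM in Sham, 8.12 to 17.3 in Control-AMI and 8.09 to 25.7 in EMPA–Pre-AMI. These groups overlap, and the log2 fold change of Control-AMI against Sham was 0.43 (95% interval -0.33 to 1.19).

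Zbtb16 had the largest fold changes of the 7 genes in ECs and in fibroblasts. In ECs it was at 29.5, 3.80, 10.2 and 7.63 CPM in Sham, 194, 320, 156 and 222 in Control-AMI, and 377, 457, 102, 381 and 174 in EMPA–Pre-AMI. The lowest library of the AMI groups, at 102 CPM, lay above the highest Sham library at 29.5. The fold was 17.7 in Control-AMI (95% interval 6.52 to 47.8, log2 4.14, SE 0.65, FDR = 0.00428) and 23.6 in EMPA–Pre-AMI (95% interval 8.79 to 63.3, FDR = 0.00308). The intervals are wide, and the Sham libraries spread from 3.80 to 29.5 CPM. With list 2 alone, the difference between Control-AMI and Sham was 5.05 on the log2 scale and did not pass (FDR = 0.0632).

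In fibroblasts Zbtb16 was at 65.3, 42.7, 29.1 and 36.2 CPM in Sham, 279, 292, 203 and 350 in Control-AMI, and 421, 418, 252 and 398 in EMPA–Pre-AMI. The groups did not overlap with Sham. The fold was 6.48 in Control-AMI (95% interval 4.45 to 9.44, FDR = 4.62e-05) and 8.58 in EMPA–Pre-AMI (95% interval 5.85 to 12.6, FDR = 7.08e-06), and in both comparisons it ranked 2 of 10691 genes by p. Without Sham replicate 2 and Control-AMI replicate 4 the log2 differences were 2.57 (FDR = 0.000464) and 3.09 (FDR = 0.000101). In cardiomyocytes Zbtb16 was at 11.3, 25.7, 12.3 and 10.7 CPM in Sham, 28.5, 39.6, 51.9, 24.7 and 30.4 in Control-AMI, and 34.5, 18.8, 24.6 and 14.8 in EMPA–Pre-AMI. Control-AMI lay above 3 of the 4 Sham libraries, and the fold of 2.31 (95% interval 1.49 to 3.59) had an unadjusted p of 0.000729 and an FDR of 0.299.

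**Figure D2:**
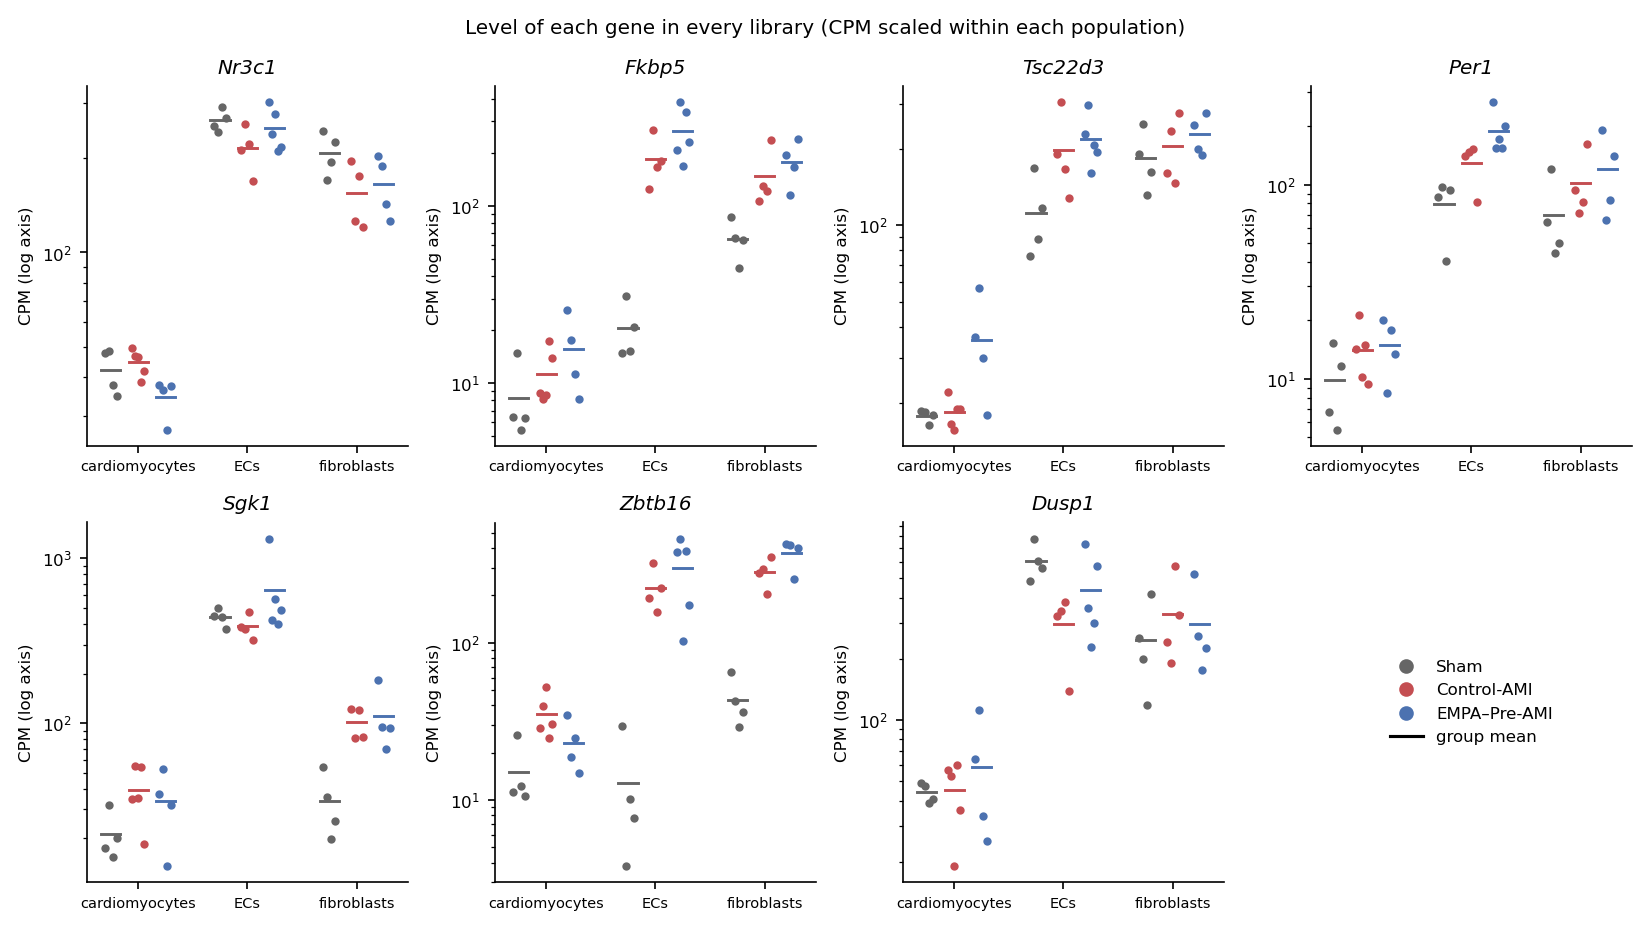
CPM on a log axis of each gene in each library (points) with the mean of the group (line), by population and group, scaled within each population so that levels are compared only within one. In ECs and fibroblasts the Sham points of Fkbp5 and Zbtb16 lie below all points of both AMI groups, while those of Nr3c1 overlap with them.

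Per1, the clock component, rose in ECs of the EMPA–Pre-AMI group. Its EC levels were 86.1, 97.5, 40.4 and 93.7 CPM in Sham, 140, 148, 152 and 80.9 in Control-AMI, and 265, 154, 172, 154 and 200 in EMPA–Pre-AMI. All EMPA–Pre-AMI libraries lay above all of Sham and all of Control-AMI (the latter as in 1.37% of all genes), and in Control-AMI replicate 4 alone was within the range of Sham. The fold against Sham was 2.39 in EMPA–Pre-AMI (95% interval 1.65 to 3.45, FDR = 0.00906) and 1.64 in Control-AMI (95% interval 1.12 to 2.41, FDR = 0.125). The difference between the AMI groups was 0.54 on the log2 scale (95% interval 0.03 to 1.06, FDR = 0.367), so that EMPA–Pre-AMI passed against Sham without having been shown to differ from Control-AMI. Without Control-AMI replicate 4, Per1 passed in Control-AMI as well (FDR = 0.0497). Within list 2 alone, the difference of EMPA–Pre-AMI from Sham was 1.35 on the log2 scale and did not pass (FDR = 0.0657). Fibroblast levels were 44.2 to 120 CPM in Sham, 71.7 to 162 in Control-AMI and 65.8 to 191 in EMPA–Pre-AMI, and cardiomyocyte levels 5.47 to 15.3, 9.36 to 21.3 and 8.47 to 20.1 CPM. Neither passed in any comparison, and without Sham replicate 2 and Control-AMI replicate 4 Per1 was at 1.18 on the log2 scale in EMPA–Pre-AMI against Sham (FDR = 0.0508).

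Tsc22d3, encoding GILZ, passed in no comparison within a population. In ECs it was at 75.5, 167, 88.6 and 117 CPM in Sham, 191, 304, 166 and 128 in Control-AMI, and 229, 297, 161, 207 and 194 in EMPA–Pre-AMI. Sham replicate 2 lay within the range of the AMI groups, and the log2 fold changes against Sham were 0.81 (SE 0.28, FDR = 0.107) and 0.95 (SE 0.27, FDR = 0.0813). Both passed with DESeq2 (FDR = 0.0366 and 0.0118). Without Sham replicate 2 both passed with edgeR (log2 1.09 and 1.20, FDR = 0.0255 and 0.0225), and without Control-AMI replicate 2 the second passed (FDR = 0.0212). In cardiomyocytes it was at 16.4 to 18.6 CPM in Sham, 15.8 to 22.2 in Control-AMI, and 36.6, 56.9, 30.0 and 17.9 in EMPA–Pre-AMI. In this last group 3 of the 4 libraries lay above all others. The log2 difference from Control-AMI was 0.91 (SE 0.25, FDR = 0.0592 in edgeR, 0.0167 in DESeq2), and without EMPA–Pre-AMI replicate 4 it was 1.12 and passed (FDR = 0.00364), as did the difference from Sham (1.18, FDR = 0.00482). With the list as covariate, which leaves EMPA–Pre-AMI replicate 4 alone to set against Control-AMI, the difference was -0.05. Summed leukocyte markers in cardiomyocyte EMPA–Pre-AMI replicates 1 to 4 were 180, 427, 82.7 and 60.6 CPM. They were 43.0 to 99.6 CPM in Sham cardiomyocytes and 56.3 to 214 in Control-AMI. The part of leukocyte RNA in the Tsc22d3 levels was not tested. In fibroblasts, with 131 to 249, 146 to 276 and 189 to 277 CPM, the 3 groups overlapped.

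Sgk1, the kinase, rose in fibroblasts. Its levels there were 54.4, 35.6, 19.9 and 25.6 CPM in Sham, 122, 81.5, 120 and 82.7 in Control-AMI, and 183, 94.2, 69.6 and 93.8 in EMPA–Pre-AMI. Every Sham library lay below every other. The fold was 2.99 in Control-AMI (95% interval 1.85 to 4.83, FDR = 0.0124) and 3.24 in EMPA–Pre-AMI (95% interval 2.00 to 5.26, FDR = 0.00766). Without Sham replicate 2 and Control-AMI replicate 4 the log2 differences were 1.69 (FDR = 0.0527) and 1.72 (FDR = 0.0286), so the first narrowly missed the threshold, as it did without Sham replicate 4 (FDR = 0.0533). In ECs Sgk1 was at 444, 502, 438 and 371 CPM in Sham, 383, 371, 475 and 321 in Control-AMI, and 1313, 426, 571, 402 and 484 in EMPA–Pre-AMI. The groups overlap, with a fold of 0.882 in Control-AMI against Sham (95% interval 0.542 to 1.44), and EMPA–Pre-AMI replicate 1 lay far above the rest. In cardiomyocytes Sgk1 was at 15.4 to 31.8, 18.4 to 54.8 and 13.6 to 52.6 CPM, with a log2 fold change of 0.89 in Control-AMI against Sham (unadjusted p = 0.0218, FDR = 0.9998 in edgeR).

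Dusp1, the phosphatase that is also an immediate early gene, passed in no comparison between groups. In ECs it was at 483, 778, 602 and 556 CPM in Sham, 326, 343, 382 and 139 in Control-AMI, and 732, 355, 229, 300 and 573 in EMPA–Pre-AMI. All Control-AMI libraries lay below all Sham libraries, as in 5.54% of all genes. The log2 fold change was -1.02 (SE 0.38, FDR = 0.154), and it passed with DESeq2 (FDR = 0.0278) and when only the groups compared were fitted (FDR = 0.0489). In fibroblasts Dusp1 ranged from 119 to 415 CPM in Sham, 191 to 575 in Control-AMI and 175 to 523 in EMPA–Pre-AMI, and in cardiomyocytes from 38.98 to 48.999, 19.1 to 60.0 and 25.3 to 111 CPM. The spread within groups was as wide as any difference between them.

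The populations differed in how far infarction moved 3 of the genes. In a model of all 38 libraries the effect of Control-AMI against Sham was larger in ECs than in cardiomyocytes for Fkbp5, by 2.78 on the log2 scale (95% interval 1.76 to 3.80, FDR = 0.00235), and for Zbtb16, by 2.97 (95% interval 1.73 to 4.21, FDR = 0.00691). These were 2 of 7 genes, where 1.51% of all genes passed. Between fibroblasts and ECs, the effect on Fkbp5 was smaller in fibroblasts (-1.99, 95% interval -2.95 to -1.04, FDR = 0.0114) and that on Sgk1 was larger (1.75, 95% interval 0.72 to 2.78, FDR = 0.0472), 2 of 7 genes where 3.22% passed. The Sgk1 call was lost on leaving out any of 26 of the 38 libraries (FDR up to 0.113), and the log2 difference stayed between 1.57 and 2.08. The effect on Zbtb16 did not pass between fibroblasts and ECs (-1.46, 95% interval -2.69 to -0.23, FDR = 0.255), except without EC Sham replicate 1 (-2.25, FDR = 0.0352). Between fibroblasts and cardiomyocytes, 0 of 7 passed with edgeR (0.331% of all genes) and 1, Zbtb16, had an unadjusted p under 0.05, with a difference of 1.51 (95% interval 0.35 to 2.67, FDR = 0.394). For the effect of EMPA–Pre-AMI against Control-AMI, none of the 7 differed between ECs and cardiomyocytes (0.993% of all genes passed), fibroblasts and cardiomyocytes (0.00827%) or fibroblasts and ECs (2.04%), with 2, 0 and 0 at an unadjusted p under 0.05. The 2 were Nr3c1 (0.61, 95% interval 0.10 to 1.12) and Sgk1 (1.01, 95% interval 0.02 to 2.01).

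The populations also differed at rest, as far as Sham animals show it. On a scale common to all libraries, Sham levels of Nr3c1 were 95.8 ± 15.9 CPM in cardiomyocytes, 166 ± 12.9 in ECs and 141 ± 22.7 in fibroblasts (SD, n = 4 each). Both other populations lay above cardiomyocytes (FDR = 0.000396 and 0.0116), and ECs and fibroblasts overlapped (FDR = 0.332). The difference between fibroblasts and cardiomyocytes was lost without cardiomyocyte Sham replicate 4 (FDR = 0.0523). Cardiomyocyte libraries also had the larger mitochondrial share, whose part in these differences was not tested. All Sham cardiomyocyte libraries were on list 4, Sham ECs on lists 2 and 3, and Sham fibroblasts on lists 1 and 4. Since ECs shared no list with either other population in Sham, list and population cannot be told apart there. Sgk1 had the widest span, 276 ± 36.9 CPM in ECs, 48.0 ± 16.3 in cardiomyocytes and 22.9 ± 10.3 in fibroblasts, each step passing the test (FDR at most 0.0199). Without any of 3 libraries the lower step did not pass (FDR up to 0.108). Sham cardiomyocyte libraries held 1485 to 2054 CPM of summed endothelial markers, against 8486 to 9612 in Sham ECs. The part of endothelial RNA in the cardiomyocyte levels, that of Sgk1 among them, was not tested. Dusp1 was at 381 ± 85.1 CPM in ECs, 167 ± 84.5 in fibroblasts and 100.03 ± 10.9 in cardiomyocytes, and the fibroblasts did not differ from the cardiomyocytes beyond their spread (FDR = 0.168). The difference between ECs and fibroblasts was lost without any of 3 libraries (FDR up to 0.0998).

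Fkbp5 and Zbtb16, which rose most in ECs, were lowest there in Sham. Fkbp5 was at 12.9 ± 4.96 CPM in ECs, 18.8 ± 9.79 in cardiomyocytes and 44.2 ± 11.7 in fibroblasts, with ECs and cardiomyocytes overlapping (FDR = 0.222) and fibroblasts above ECs (FDR = 8.73e-05). Zbtb16 was at 7.98 ± 7.04 CPM in ECs, 29.3 ± 10.7 in fibroblasts and 33.99 ± 16.1 in cardiomyocytes. Here ECs lay below both (FDR = 0.00039 and 0.00132), and the other populations overlapped (FDR = 0.692). In Control-AMI the levels were 118 ± 38.6 CPM of Fkbp5 in ECs and 102 ± 41.1 in fibroblasts, and 143 ± 44.5 CPM of Zbtb16 in ECs and 193 ± 42.0 in fibroblasts, so the ranges of ECs and fibroblasts overlapped after infarction. Tsc22d3 was at 40.6 ± 2.14 CPM in cardiomyocytes, 70.8 ± 26.8 in ECs and 124 ± 33.1 in fibroblasts, each step passing (FDR = 0.0128 and 0.0121). The lower step was lost without EC Sham replicate 2 (FDR = 0.115) and the upper without any of 3 libraries (FDR up to 0.0706). Per1 was at 22.2 ± 10.1, 50.0 ± 16.8 and 47.1 ± 22.96 CPM in the same order, with no difference detected between ECs and fibroblasts (FDR = 0.878). Of the 7 genes, 5 were higher and 1 lower in ECs than in cardiomyocytes (52.9% of all genes passed), 4 and 1 in fibroblasts than in cardiomyocytes (47.3%), and 3 and 2 in fibroblasts than in ECs (37.7%). With the list as covariate, 3 and 2 of the 7 passed in the comparisons with cardiomyocytes. As Sham ECs shared no list with Sham cardiomyocytes, that fit ties them through libraries of the other groups alone.

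The rise of Fkbp5 and Zbtb16 in ECs is set beside the fibroblast markers of the same libraries, since these markers moved with Control-AMI. Control-AMI replicates 1 and 4 had the most, 4938 and 2709 CPM of summed markers, and among the 4 libraries of that group they had 124 and 180 CPM of Fkbp5 and 194 and 222 CPM of Zbtb16, not the highest of either. EMPA–Pre-AMI ECs had 339 to 684 CPM of the markers, within or below the Sham range up to 1024, and 0 of the 7 tested differed from Sham by edgeR, and there Fkbp5 and Zbtb16 were as high as in Control-AMI. Without Control-AMI replicates 1 and 4, both genes still passed against Sham, at 3.42 (FDR = 0.000584) and 4.25 (FDR = 0.0360) on the log2 scale. The Control-AMI libraries left, at 1364 and 1471 CPM of the markers, were still above every Sham library, and the part of fibroblast RNA in the rise was not tested. Replicates 1 and 4 of Control-AMI were also the only EC libraries on list 4. Leaving them out therefore removes that list too, and marker content and list cannot be told apart there. Endothelial markers were lower in Control-AMI than in Sham for 3 of 8 genes tested, with summed levels of 4451 to 6207 CPM against 8486 to 9612. In these bulk samples, fewer cells of a type and less RNA per cell cannot be told apart.

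**Figure D3:**
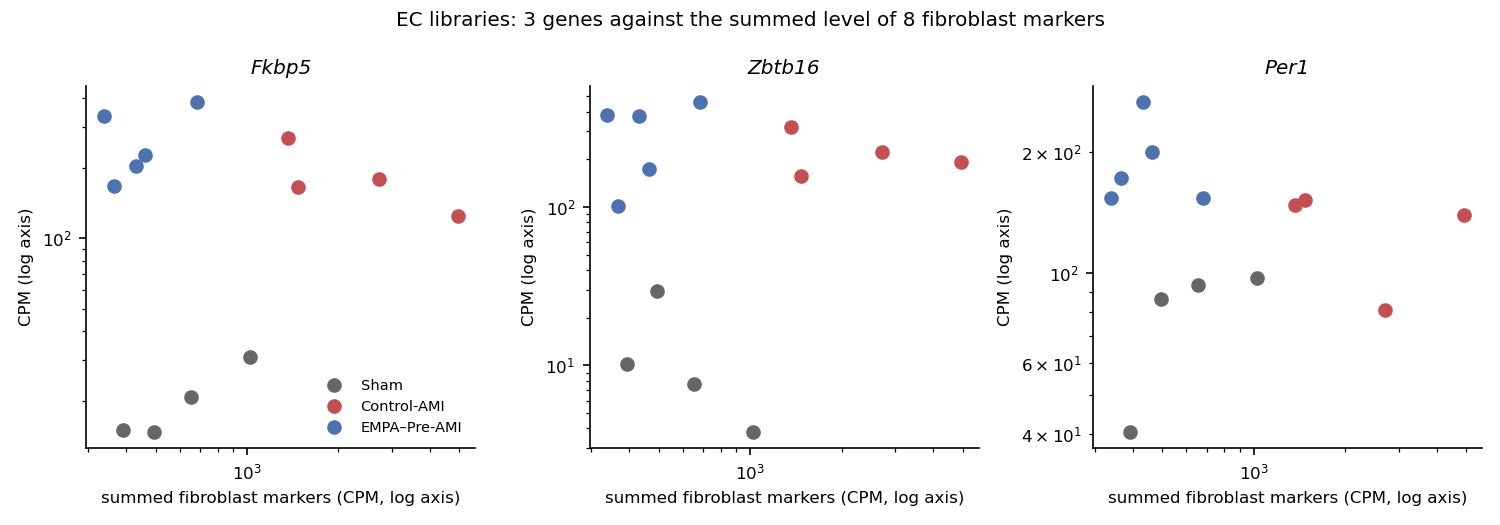
CPM of Fkbp5, Zbtb16 and Per1 in each EC library against the summed CPM of 8 fibroblast markers in the same library, both on log axes. EMPA–Pre-AMI libraries (339 to 684 CPM of markers) share the marker range of Sham and the high Fkbp5 and Zbtb16 levels of Control-AMI.

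A list of 24 further genes that glucocorticoids induce in many cell types was read in the same tests. The shares of all genes that passed in each comparison, given above beside the 7 genes, apply to this list and those below. In ECs, 11 of the 23 tested were higher and none lower in Control-AMI than in Sham, with a median log2 fold change of 1.02 over the list and -0.02 over all genes. The highest were the metallothioneins Mt2 (log2 5.40, SE 0.71, FDR = 0.00210) and Mt1 (4.63, SE 0.52), which bind zinc and also respond to metals and oxidative stress, the transcription factor Cebpb (3.01, SE 0.58) and its relative Cebpd (2.15, SE 0.41). In EMPA–Pre-AMI ECs 11 were higher than in Sham, 10 of them also higher in Control-AMI, and Mt2 (4.58), Mt1 (4.13), Cebpb (3.03) and Fam107a (2.36), an actin-binding protein, led. Within list 2 alone, 5 of the 11 calls in Control-AMI and 3 of the 11 in EMPA–Pre-AMI still passed. Leaving out Sham replicate 3 left 8 and 7 genes higher, the fewest of any library left out. With 1 library left out at a time, Fam107a passed in EMPA–Pre-AMI against Sham in 7 of 13 fits, while Mt1, Mt2 and Cebpb passed in all 13. Between EMPA–Pre-AMI and Control-AMI none of the 23 passed with edgeR, and 3 had an unadjusted p under 0.05.

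In fibroblasts 8 of 21 genes of this list were higher in Control-AMI than in Sham and 1 was lower, with a median of 1.09. Mt2 (5.11, SE 0.51), Mt1 (4.33, SE 0.41), Cebpb (2.20, SE 0.53) and the epidermal growth factor receptor inhibitor Errfi1 (1.94, SE 0.33) rose, and the transcriptional repressor Bcl6 fell by 1.10 (SE 0.30, FDR = 0.0457). In EMPA–Pre-AMI 10 rose, among them all 8 of those, led by Mt2 (5.05), Mt1 (4.12) and Cebpb (2.03). The lipocalin Lcn2 also passed (FDR = 0.00487), with 0.296 ± 0.366 CPM in Sham, under the level of 3 counts, and 8.09 ± 5.23 in EMPA–Pre-AMI (SD, n = 4 each). Without Sham replicate 2 and Control-AMI replicate 4, 5 of the 8 calls in Control-AMI passed, without Cebpb (1.39, FDR = 0.125), Errfi1 (1.82, FDR = 0.0550) and Cdkn1a (1.59, FDR = 0.0910), the call of Bcl6 was lost (FDR = 0.0954), and 8 of the 10 in EMPA–Pre-AMI passed. With 1 fibroblast library left out at a time, Cebpb passed in 5 of 12 fits in Control-AMI and 3 of 12 in EMPA–Pre-AMI. Bcl6 passed in 5 of 12 in Control-AMI, while Mt1, Mt2 and Errfi1 passed in all 12. In cardiomyocytes 3 of 20 rose in Control-AMI, Mt2 (2.49, SE 0.32), the cell cycle inhibitor Cdkn1a (1.63, SE 0.25) and the mTOR inhibitor Ddit4 (1.46, SE 0.20). In EMPA–Pre-AMI cardiomyocytes 9 rose against Sham, led by Mt2 (3.29), Ddit4 (2.67), the kinase of pyruvate dehydrogenase Pdk4 (2.19) and Cebpd (1.94). With the list as covariate 2 of these 9 passed, Ddit4 (2.16) and Mt2 (2.40), and 6 of the 9 did when only the groups compared were fitted. Without Sham replicate 2, 3 or 4, 5 genes of the list were higher. With 1 library left out at a time, Pdk4 passed against Sham in 4 of 13 fits and Cebpd in 7 of 13, while Mt2 and Ddit4 passed in all 13. Ddit4 was the one gene of the list that passed between EMPA–Pre-AMI and Control-AMI in cardiomyocytes, at 68.0 ± 6.02 CPM in Control-AMI (n = 5) and 157 ± 32.7 in EMPA–Pre-AMI (n = 4), a log2 difference of 1.20 (SE 0.18, FDR = 0.0217). This call was lost when only these groups were fitted (1.20, FDR = 0.168), with the replicate number as a block (1.16, FDR = 0.113) and with the list as covariate (0.70, FDR = 0.999), and it was lost on leaving out replicate 3 of Sham or of EMPA–Pre-AMI, or replicate 1, 2 or 5 of Control-AMI (FDR up to 0.105). Cdkn1a, Ddit4 and Mt2 rose in Control-AMI in all 3 populations. Many of these genes also answer to hypoxia, metals or cytokines, and the list was drawn up with results of these data known.

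**Figure D4:**
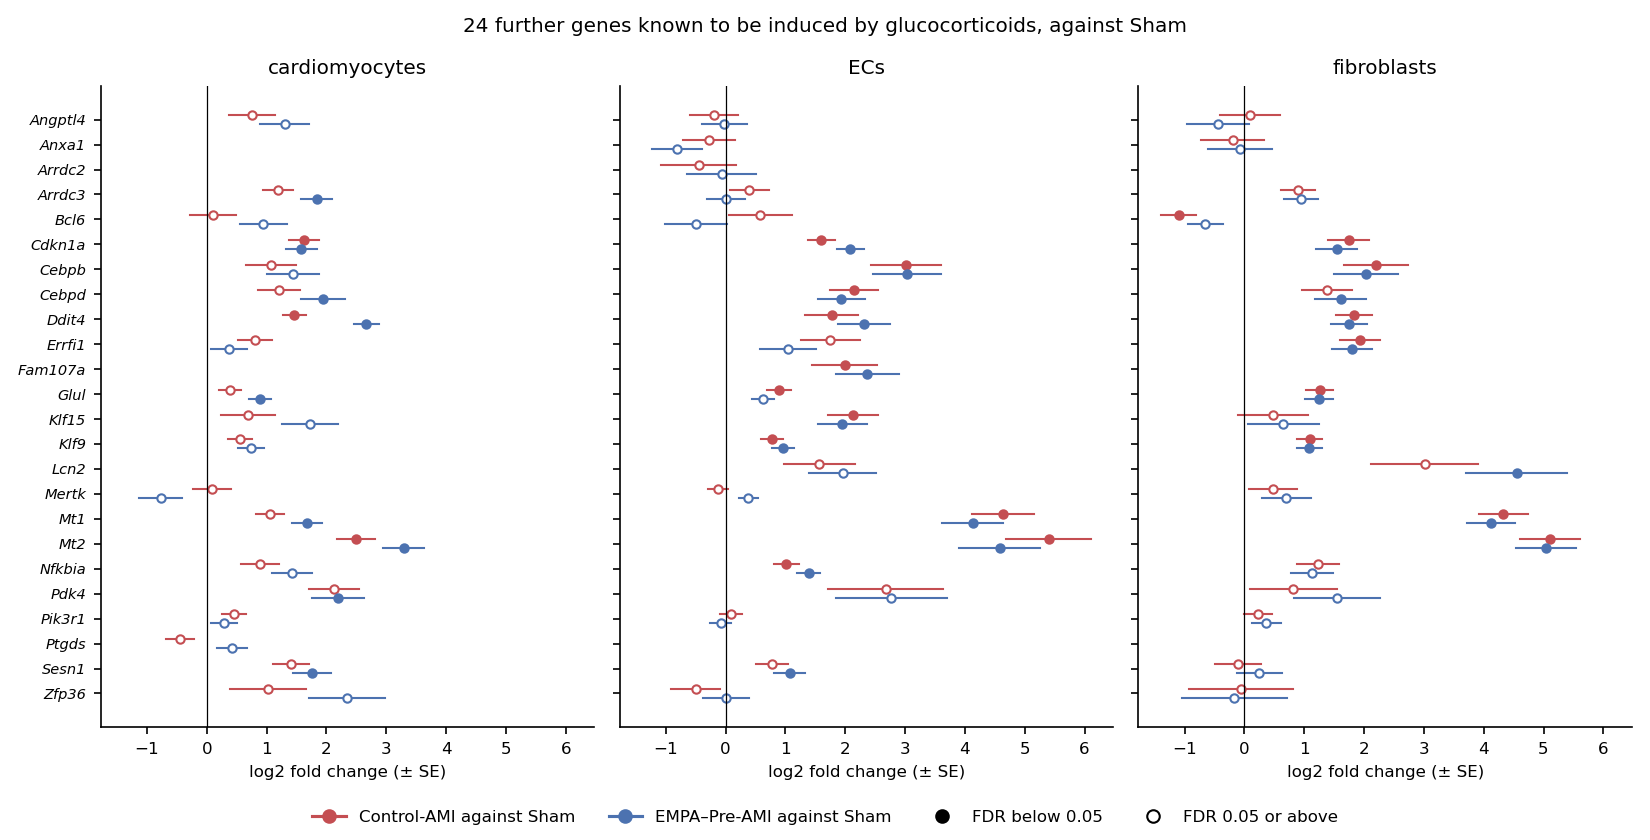
Log2 fold changes with SE of 24 further glucocorticoid-induced genes against Sham in each population, for Control-AMI and EMPA–Pre-AMI. Filled points have an FDR below 0.05 (11 and 11 in ECs, 9 and 10 in fibroblasts, 3 and 9 in cardiomyocytes), and genes without a point did not pass the filter on low counts in that population.

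Few partners of the receptor and enzymes of its hormone passed the test. Of 12 tested in each population (chaperones, coactivators, corepressors and steroid enzymes), none passed in cardiomyocytes or fibroblasts in any comparison with edgeR, with 0 to 5 at an unadjusted p under 0.05. In ECs, Hsd11b1, the enzyme that regenerates active corticosterone from its inactive form, was at 3.29 ± 2.33 CPM in Sham, at 18.2 ± 9.71 after AMI in the Control-AMI group and at 2.61 ± 0.779 with EMPA (SD, n = 4, 4 and 5). It rose by 2.42 on the log2 scale in Control-AMI (FDR = 0.00439) and fell by 2.77 in EMPA–Pre-AMI against Control-AMI (FDR = 0.00310). Its level in fibroblasts was 121 ± 28.95 CPM in Sham, and fibroblast markers were high in the same Control-AMI ECs, whose part in the result was not tested. Without Control-AMI replicates 1 and 4, the libraries with the most of them, the differences were 1.84 (FDR = 0.166) and -2.19 (FDR = 0.235). Those libraries were also the only ECs on list 4, so marker content and list cannot be told apart there.

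Of the inflammatory genes that glucocorticoids repress, several rose and none fell with edgeR. Over all genes, 4.09% rose in ECs and 2.99% in fibroblasts in Control-AMI against Sham. In ECs 2 of the 8 tested from this list were higher in Control-AMI than in Sham and none lower. They were the cytokine Il6, at 15.1 ± 8.37 CPM (n = 4) with all Sham libraries at 0, and the metalloproteinase Mmp3 (log2 1.96, FDR = 0.0410). Mmp3 was at 4.06 ± 3.44 CPM in Sham ECs, 15.8 ± 6.85 in Control-AMI and, with EMPA, 4.19 ± 2.32, beside 49.04 ± 9.17 in Sham fibroblasts, and so moved with the fibroblast markers of the same EC libraries, whose part was not tested. Without Control-AMI replicates 1 and 4, the only ECs on list 4, it did not pass (1.86, FDR = 0.198). In EMPA–Pre-AMI ECs Il6 was the 1 gene of the 8 that passed against Sham, at 12.6 ± 8.39 CPM (n = 5). In fibroblasts Il6 rose from 2.61 ± 1.82 to 62.4 ± 40.01 CPM in Control-AMI (n = 4 each, log2 4.53, FDR = 0.00691), and the adhesion molecule Sele rose from 1.13 ± 0.937 CPM, about the level of 3 counts, to 20.5 ± 18.2 (FDR = 0.00415), 2 of 9 tested. In EMPA–Pre-AMI fibroblasts both passed again, with the adhesion molecule Icam1 (log2 1.70, FDR = 0.0363). Without fibroblast Sham replicate 2 and Control-AMI replicate 4, Il6 and Sele passed in both comparisons and Icam1 did not (FDR = 0.1002). None of the 5 tested in cardiomyocytes passed with edgeR, and 3, 1 and 3 had an unadjusted p under 0.05 for Control-AMI against Sham, for EMPA–Pre-AMI against Control-AMI, and for EMPA–Pre-AMI against Sham. Clock genes other than Per1 passed in ECs only for Per2 in EMPA–Pre-AMI against Sham (log2 1.70, SE 0.42, FDR = 0.0297, 1 of 11 tested). With 1 library left out at a time, this call passed in 7 of 13 fits with edgeR (FDR up to 0.132). In fibroblasts, the clock repressors Nr1d2 (1.10) and Cry2 (0.87) rose in Control-AMI, and both of them and Nr1d1 (0.90) rose in EMPA–Pre-AMI, 3 of 12 tested. Cry2 was the call lost in both without the same 2 libraries (FDR = 0.126 and 0.0548). With 1 library left out at a time, Nr1d1 passed in 2 of 12 fits, and Nr1d2 in 8 of 12 in both comparisons. The median log2 fold change of the clock list in Control-AMI fibroblasts was -0.42, and 7 of 12 had an unadjusted p under 0.05 with edgeR. Of these, Npas2 (-1.22), Per2 (-0.84), Bmal1 (-0.66) and Hlf (-0.57) were lower than in Sham and did not pass. Of 11 immediate early genes, which cell dissociation also induces, none passed in any population or comparison with edgeR, with 0 to 5 at an unadjusted p under 0.05. In these comparisons 0% to 6.56% of all genes passed, and 0 of 11 is near that share.

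Across the 9 group means on the common scale, Fkbp5 and Zbtb16 had a Pearson r of 0.87, Fkbp5 and Per1 0.85, Fkbp5 and Tsc22d3 0.85, and Nr3c1 and Zbtb16 -0.20. These are descriptions over 9 points that share populations and groups. In 6 of the 9 groups the library with the most Fkbp5 was also the one with the most Zbtb16, and the same held in 6 groups for Per1 and Sgk1, against 1 group for Zbtb16 and Dusp1. These were the highest and lowest counts of all pairs, and Nr3c1 matched Sgk1 and Zbtb16 in 5 groups each. Single libraries, fibroblast EMPA–Pre-AMI replicate 1 among them, were highest for 5 of the 7 genes. How many matches arise by chance was not tested. Over the same 9 means the gene most like Fkbp5 was Agfg2 (r = 0.98), followed by the steroid sulfate transporter Slc10a6 (0.95), and Slc10a6 was also the closest over the 38 libraries (0.90). Zbtb16 was closest to Zbtb38 and Spsb1 (0.95 each), Per1 to Klf13 (0.98), Sgk1 to the endothelial gene Apold1 (0.98), Tsc22d3 to Smg9 (0.96), Dusp1 to S100a16 (0.97) and Nr3c1 to Dcaf17 (0.99).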

How the data were processed

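The authors prepared 3′ RNA libraries (QuantSeq), trimmed reads with cutadapt 2.8, quantified them with Salmon against GRCm39 (Ensembl annotation) and deposited 1 table of estimated counts per gene, which need not be whole. Tools and versions are those in the submitters' processing notes. The estimated counts were rounded, and genes were kept by filterByExpr with the groups. Each population was fitted with its 3 groups by edgeR 4.0.16 in R 4.3.3, using TMM scaling and robust quasi-likelihood tests, and Benjamini-Hochberg adjustment (FDR below 0.05). Comparisons of populations used all 38 libraries in 9 groups. Levels are TMM-scaled CPM. Since 3′ reads carry no length, levels of different genes were not compared. Alternatives were DESeq2 1.42.0, other filters, the replicate number as a block, the sheet list as a covariate and leaving out libraries, and 2 sets of libraries left out for their markers, and all alternatives of the gene lists, were chosen after seeing the data. The fits were tested on simulated data for Control-AMI against Sham. Of simulated 2-fold changes, 40% were recovered in cardiomyocytes, 42% in ECs and 34% in fibroblasts. Of 4-fold changes, 85%, 88% and 86% were recovered in the same order. For the difference between ECs and cardiomyocytes in this effect, 13% of 2-fold and 52% of 4-fold changes were recovered. A gene that did not pass may therefore still differ.

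Groups come from the sample names. The p-values measure the spread between libraries of 2 pooled hearts. Intervals and the limit of 3 counts cover counting error or that spread alone. The 7 genes and all lists were chosen with earlier results of these data known. From each list, up to 4 genes per direction with the largest change among those passing were named. Lower clock genes in fibroblasts that did not pass were named as well. Sequences were read from GRCm39 with GENCODE annotation of another release than the counts, with starts taken from the canonical transcript. Motifs were searched on both strands. One result of the list of receptor partners is not reported here.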

Additional observations from a re-analysis of the deposited data

Results flagged for a closer look

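In 6 of the 63 groups of libraries checked (7 genes, 9 groups), 1 library stood apart from the others by Dixon's test at the 95% level, where chance gives about 1 in 20. Fkbp5 in cardiomyocyte Sham replicate 2 was at 14.8 CPM, with the other libraries at 5.47 to 6.48. Zbtb16 in that library was at 25.7 CPM, with the others at 10.7 to 12.3. Nr3c1 in cardiomyocyte EMPA–Pre-AMI replicate 3 was at 27.2 CPM, with the others at 36.3 to 37.6. Per1 in EC Control-AMI replicate 4 was at 80.9 CPM, with the others at 140 to 152. Sgk1 in EC EMPA–Pre-AMI replicate 1 was at 1313 CPM, with the others at 402 to 571. Zbtb16 in fibroblast EMPA–Pre-AMI replicate 3 was at 252 CPM, with the others at 398 to 421.

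The effect of Control-AMI against Sham differed between populations in 4 tests of the difference itself with edgeR's quasi-likelihood test. Between ECs and cardiomyocytes it differed by 2.78 on the log2 scale for Fkbp5 and by 2.97 for Zbtb16, both larger in ECs. Between fibroblasts and ECs it differed by -1.99 for Fkbp5, larger in ECs, and by 1.75 for Sgk1, larger in fibroblasts.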

How the results depend on the processing

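Apart from leaving out single libraries, 141 of 156 settings kept the 18 counts of genes within 1.5 times, and 803 of 858 kept direction and side of the threshold for single genes. In cardiomyocytes, EMPA–Pre-AMI against Control-AMI had 1 gene (Tsc22d3) instead of 0 with DESeq2, without a filter and with a minimum of 10 counts per library, and EMPA–Pre-AMI against Sham had 1 with DESeq2. In ECs, Control-AMI against Sham had 4 instead of 2 with DESeq2, 1 with the minimum of 10 counts per library, where Zbtb16 was filtered out, and 1 with sheet list 2 alone. In fibroblasts the count was 1 instead of 3 without the libraries highest in leukocyte and mural markers. In Sham, ECs against cardiomyocytes had 2 instead of 6 with the replicate block and 3 with the sheet list as covariate, fibroblasts against cardiomyocytes 3 instead of 5 with the block and 2 with the sheet list as covariate, and fibroblasts against ECs 3 instead of 5 with the block. The difference between fibroblasts and ECs in the effect of Control-AMI was 1 instead of 2 without a filter and with the sheet list as covariate. The cause was not tested.

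Replicate numbers are shared between groups, and same-numbered libraries deviated together in 12 of 36 pairs of groups (correlations -0.113 to 0.484, threshold 0.1). The largest were in fibroblasts, where replicate 4, on sheet list 1 in every group, gave 0.280, 0.484 and 0.283. Whether the numbers mark a pairing is not known, and the block stands for a number. With the replicate block Tsc22d3 passed in ECs against Sham, at 0.81 (FDR = 0.0105) in Control-AMI and 1.01 (FDR = 0.00299) in EMPA–Pre-AMI by edgeR.

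Leaving out 1 library gave counts of 0 to 1 for cardiomyocytes in both comparisons of EMPA–Pre-AMI (1 without EMPA–Pre-AMI replicate 4), 1 to 3 for fibroblasts in Control-AMI against Sham (1 without Sham replicate 4), 3 to 5 for fibroblasts against ECs in Sham (3 without fibroblast Sham replicate 2), and 1 to 2 for the difference between fibroblasts and ECs.

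The log2 values that changed sign were all of genes that did not pass. Leaving out 1 library, those in cardiomyocytes ran, for Control-AMI against Sham, from -0.0925 to 0.219 for Dusp1, from -0.0155 to 0.152 for Nr3c1 and from -0.0232 to 0.102 for Tsc22d3. For EMPA–Pre-AMI against Control-AMI they ran from -0.521 to 0.0311 for Sgk1, from -0.0429 to 0.330 for Per1 and from -0.138 to 0.602 for Dusp1, and against Sham from -0.116 to 0.632 for Dusp1. In ECs, Tsc22d3 ran from -0.0182 to 0.401 for EMPA–Pre-AMI against Control-AMI. In fibroblasts, Tsc22d3 ran from -0.0165 to 0.341 for Control-AMI against Sham, Sgk1 from -0.255 to 0.283, Per1 from -0.0970 to 0.545, Dusp1 from -0.613 to 0.225 and Nr3c1 from -0.0287 to 0.234 for EMPA–Pre-AMI against Control-AMI, and Dusp1 from -0.160 to 0.636 for EMPA–Pre-AMI against Sham. Between populations in Sham, Per1 ran from -0.469 to 0.0765 for fibroblasts against ECs and Zbtb16 from -0.493 to 0.180 for fibroblasts against cardiomyocytes. With the sheet list as covariate these were, in cardiomyocytes, Per1 -0.0670, Dusp1 -0.828, Fkbp5 -0.480 and Tsc22d3 -0.0489 against Control-AMI, and Dusp1 -0.799, Fkbp5 -0.0565 and Zbtb16 -0.0331 against Sham. In fibroblasts they were Sgk1 -0.175 and Per1 -0.137 against Control-AMI and Dusp1 -0.170 against Sham, and between fibroblasts and ECs in Sham, Per1 0.0556 and Nr3c1 0.261. Per1 there was 0.0368 with the block. In ECs they were Tsc22d3 -0.0618 with sheet list 2 alone and -0.136 without the libraries high in fibroblast markers, and Nr3c1 0.0107 with sheet list 2 alone. Without fibroblast Sham replicate 2 and Control-AMI replicate 4, Nr3c1 was -0.00185 against Control-AMI.

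Counts were low for some genes, with at most 61 of Fkbp5 in a cardiomyocyte library. What depth alone limits was not tested.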
